A study of Sus scrofa with 4 samples.

Results

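The genes described here carry the insulin signal in fat cells and bring glucose into them. They are the receptor INSR, its substrates IRS1 and IRS2, the kinases AKT1 and AKT2, the transcription factor FOXO1, the phosphodiesterase PDE3B and the glucose transporters SLC2A1 and SLC2A4. They were chosen by name, with earlier results of these data known. Each of the 9 was found as a single protein-coding row among the 16192 protein-coding genes of the deposited values. Expression was measured by RNA-Seq in cultured subcutaneous preadipocytes of male Chinese Erhualian piglets in their first week of life. D0 was confluent cells before induction. D2 was taken after 2 days in growth medium with serum plus dexamethasone, 3-isobutyl-1-methylxanthine and insulin, D4 after a further 2 days in serum medium with insulin as the only added hormone, and D8 after 4 more days in serum medium for which no added insulin is stated. RNA from 3 piglets was pooled in equal amounts into 1 library per stage, so that there were no replicates, no test between stages was possible, and stage, medium and library cannot be told apart. As the culture was measured in bulk, fewer cells of a type and less RNA per cell cannot be told apart either.

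Insulin binds INSR, which phosphorylates the IRS adaptors, and these recruit PI3-kinase and thereby activate AKT. In adipocytes, AKT releases storage vesicles that carry the insulin-dependent glucose transporter GLUT4, the product of SLC2A4, to the cell surface, and it keeps FOXO factors out of the nucleus. It also activates PDE3B, which breaks down cyclic AMP and restrains lipolysis. GLUT1, the product of SLC2A1, serves basal glucose uptake in most cells and is abundant in dividing cells. FOXO1 is known to activate INSR and IRS2 when insulin is low, and 3-isobutyl-1-methylxanthine blocks most phosphodiesterases.

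Expression is given as FPKM, fragment counts scaled to transcript length and to the fragments counted in the library, a scale on which genes can be compared per length. The totals behind FPKM were 75387428 fragments for D0, 54987801 for D2, 74358922 for D4 and 54128151 for D8, and the read numbers of the genes recovered from them give the 95% counting intervals below, which cover counting error only. Genes that reached FPKM 1 in 3 or more of the 4 libraries were called reliably expressed. Of 12 adipocyte markers, 9 were reliably expressed, and the summed FPKM of all 12 was 127 at D0, 517 by D2, 1828 by D4 and 2152 by D8. FABP4, LPL and PLIN1 were the markers with the highest FPKM in any library, at D8 for FABP4 and at D4 for LPL and PLIN1. Preadipocyte or fibroblast markers summed to between 1097 and 2848. Markers of other cell types had lower sums, except for those of smooth muscle or pericytes, which are given with SLC2A1. The sums were 1.38 to 2.65 for endothelial cells, 5.09 to 9.88 for macrophages or leucocytes and 0.220 to 0.821 for skeletal muscle. Of the markers with values, 1 of 6 for endothelial cells and 3 of 8 for macrophages or leucocytes were reliably expressed. The highest FPKM was 2.56 for the former and 7.54 for the latter.

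Of the 9 genes, 8 were reliably expressed. IRS2 passed FPKM 1 at D2 and D4 only and is therefore given by its values without a call. SLC2A4 and PDE3B passed in 3 libraries and were under 1 at D0, so that they passed the filter through the stages at which they were high. INSR and PDE3B lie on chromosome 2, at 71797209 to 71939923 and at 44416934 to 44614075 of the pig genome build Sscrofa11.1. SLC2A1 and AKT2 lie on chromosome 6, at 168535398 to 168561170 and at 48555785 to 48620472. FOXO1 and IRS2 lie on chromosome 11, at 15317222 to 15410059 and at 76626158 to 76654639. SLC2A4 lies on chromosome 12 at 52628746 to 52634965 and IRS1 on chromosome 15 at 128245846 to 128307321, while AKT1 is on an unplaced scaffold at 3040277 to 3061464.

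INSR, the receptor, and IRS2 were low at D0, highest at D4 and low again at D8, and IRS1 differed from them by its late rise. INSR had an FPKM of 1.11 at D0, 3.61 by D2, 5.68 by D4 and 1.39 by D8. D2 was 3.27 times D0 (95% counting interval 2.90 to 3.68), D4 was 5.14 times D0 (4.61 to 5.74), and D8 was 0.245 times D4 (0.218 to 0.274). At D8 INSR was thus close to its starting level, at 1.26 times D0 (1.09 to 1.46).

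IRS1 and IRS2 are the main docking proteins of the receptor. The FPKM of IRS1 was 1.39 at D0, 1.26 by D2, 3.18 by D4 and 1.55 by D8. IRS2 had 0.696 at D0, 1.88 by D2, 2.41 by D4 and 0.890 by D8. The substrates therefore changed places between D0 and D2. IRS1 held 66.7% of their summed FPKM at D0, 40.0% by D2, 56.9% by D4 and 63.6% by D8. Between D0 and D2, IRS2 was 2.70 times higher (2.37 to 3.09), whereas the interval of IRS1 held no change (0.901 times, 0.797 to 1.02). Between D2 and D4 the larger step was that of IRS1, at 2.53 times (2.27 to 2.82) against 1.28 times (1.16 to 1.41) for IRS2. At D8 IRS1 was 0.489 times its D4 level (0.442 to 0.540) and IRS2 0.370 times (0.325 to 0.419).

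**Figure D1:**
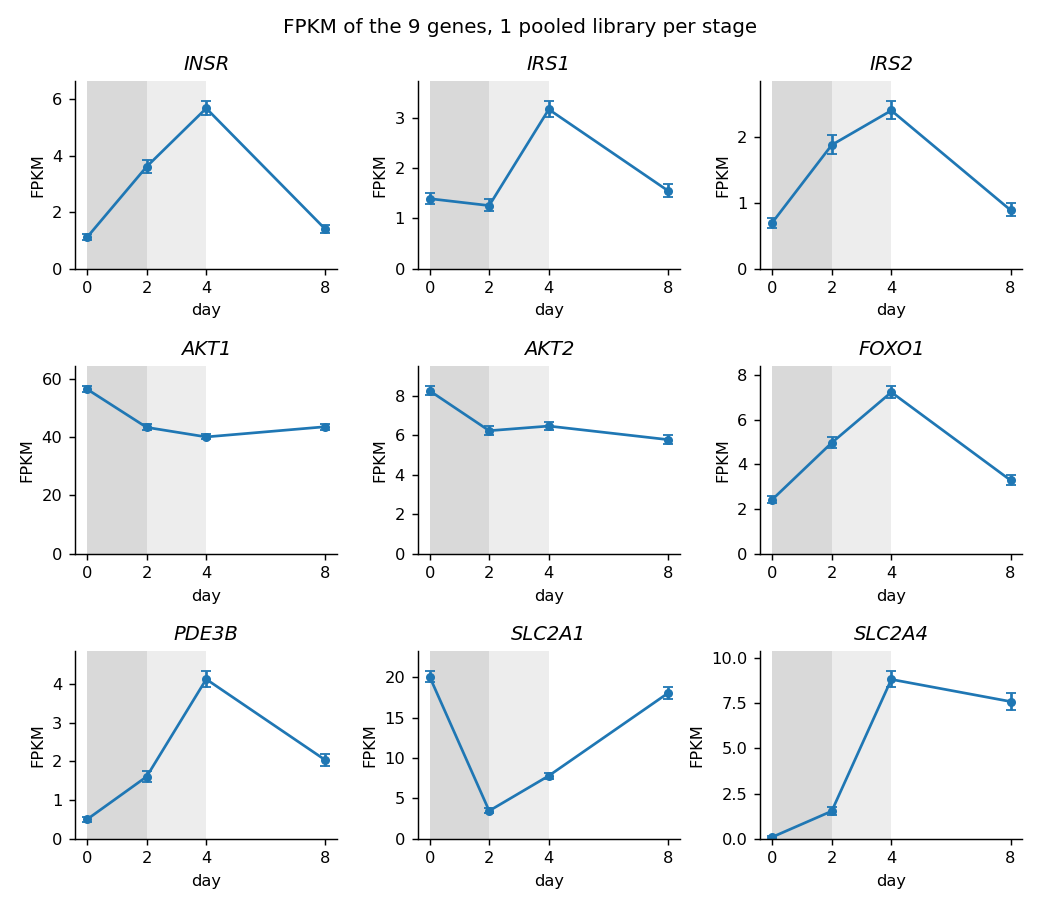
FPKM (vertical axes, from 0) against day for each gene, 1 pooled library per point, with bars for 95% counting intervals. Dark shading marks the days with the full hormone cocktail and light shading the days with insulin alone. INSR, IRS1, IRS2, FOXO1, PDE3B and SLC2A4 were highest at D4, AKT1 and AKT2 at D0, and SLC2A1 had its minimum of 3.46 at D2.

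The AKT kinases, which relay the signal from PI3-kinase, moved least. AKT1 had an FPKM of 56.5 at D0, 43.4 by D2, 40.1 by D4 and 43.6 by D8, and was the highest of the 9 genes in all 4 libraries. AKT2, the isoform best known for insulin action in fat, had 8.25 at D0, 6.22 by D2, 6.46 by D4 and 5.77 by D8. Neither reached a ratio of 2 in any of the 5 comparisons, and the highest level was 1.41 times the lowest for AKT1 and 1.43 times for AKT2. Their profiles were the most alike of the 36 pairs among the 9 genes, with a root mean square difference of 0.10 on the centred log2 scale. D0 was the highest stage for both, and the interval of their D4 to D0 ratio was below 1, at 0.710 times (0.691 to 0.729) for AKT1 and 0.783 times (0.751 to 0.816) for AKT2.

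FOXO1, the factor that AKT holds outside the nucleus, had an FPKM of 2.42 at D0, 4.96 by D2, 7.23 by D4 and 3.29 by D8. It was upregulated to 2.05 times D0 at D2 (1.89 to 2.23), a ratio whose interval includes 2, and to 2.99 times D0 at D4 (2.78 to 3.22). At D8 it was 0.455 times D4 (0.422 to 0.489) and 1.36 times D0 (1.24 to 1.49). FOXO1 and IRS2 had the second smallest profile difference among the pairs, at 0.18, followed by INSR and IRS2 at 0.24. FOXO3, another member of the family, had an FPKM of 1.34 at D0, 5.43 by D2, 8.06 by D4 and 2.28 by D8, and so passed FOXO1 at D2 and D4 but not at D0 and D8.

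PDE3B, the cyclic AMP phosphodiesterase through which insulin lowers lipolysis, had an FPKM of 0.501 at D0, 1.61 by D2, 4.13 by D4 and 2.03 by D8. D4 was 8.23 times D0 (7.12 to 9.56), of which 3.21 times (2.72 to 3.79) had been reached at D2. D8 was 0.493 times D4 (0.448 to 0.541) and still 4.06 times D0 (3.46 to 4.77). PDE3A, the isoform of heart and vessels, had 5.04 at D0, 5.59 by D2, 2.58 by D4 and 2.70 by D8. It thus went the other way between D2 and D4. From D4 to D8, as PDE3B fell, the interval of PDE3A held no change (1.05 times, 0.926 to 1.19). PDE3B accordingly held 9.04% of the summed FPKM of PDE3A and PDE3B at D0, 22.3% by D2, 61.6% by D4 and 43.0% by D8.

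SLC2A4, which encodes the insulin-dependent transporter GLUT4, had the largest ratio of the 9 genes. Its FPKM was 0.0924 at D0, 1.53 by D2, 8.80 by D4 and 7.58 by D8, which corresponds to 17, 205, 1597 and 1001 reads. D2 was 16.5 times D0 (10.1 to 28.9), D4 was 95.2 times D0 (59.3 to 164) and D8 was 82.0 times D0 (51.0 to 141). The width of these intervals comes from the 17 reads at D0. On the log2 scale with 0.01 added to each FPKM, which reduces the ratios of low genes, the change from D0 to D4 was 6.43 and that from D4 to D8 was -0.22. SLC2A4 thus rose at least 2-fold from D0 to D4 and differed from D4 by less than 2-fold at D8 (0.861 times, 0.795 to 0.932). It rose along with the adipocyte markers, whose part in the result was not tested. GLUT4 is also a muscle protein, and the 7 skeletal muscle markers in the files, of 11 listed, were each below FPKM 1 in every library. The listed MYOD1, MYF5, PAX7 and MYH3 were not among the 7, and a muscle source of SLC2A4 was not tested.

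SLC2A1, which encodes GLUT1, followed the opposite course between D0 and D2. Its FPKM was 20.1 at D0, 3.46 by D2, 7.81 by D4 and 18.1 by D8. It was downregulated to 0.172 times D0 at D2 (0.156 to 0.189), then upregulated 2.26 times from D2 to D4 (2.04 to 2.50) and 2.31 times from D4 to D8 (2.17 to 2.47). At D8 it was 0.898 times D0 (0.854 to 0.944). The markers of smooth muscle or pericytes, most of which are actin-cytoskeleton genes that also mark activated fibroblasts, were likewise lower at D2 than D0. ACTA2, TAGLN and CNN1 were higher at D8 than at D4, but lower at D4 than at D2. CSPG4, NOTCH3 and RGS5 were higher at D4 than at D2, and MYH11 and RGS5 were lower at D8 than at D4. Most of the summed FPKM of the 7 markers came from ACTA2 and TAGLN. The sum was 5775 at D0, 628 by D2, 508 by D4 and 4779 by D8, and 4 of the 7 were reliably expressed. MYH11, the marker most particular to mature smooth muscle, had an FPKM between 0.289 and 0.633, and none of the list was at 0 in all libraries. The part of these markers in the course of SLC2A1 was not tested.

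The order of the transporters was reversed at D4 alone. SLC2A4 exceeded SLC2A1 at D4 (8.80 against 7.81 FPKM, with counting intervals that do not overlap), whereas SLC2A1 was higher at D0, D2 and D8. Among all 12 genes of the SLC2A family in the files, the summed FPKM was 56.5 at D0, 29.4 by D2, 40.4 by D4 and 71.5 by D8. SLC2A4 held 0.163% of this sum at D0, 5.20% by D2, 21.8% by D4 and 10.6% by D8. SLC2A1 held 35.6%, 11.8%, 19.3% and 25.3% at the same stages. The rise of the sum at D8 was mainly in SLC2A1 and in SLC2A3, a high-affinity glucose transporter that had an FPKM of 22.2 at D0, 7.57 by D2, 7.48 by D4 and 32.7 by D8. Transcript levels of transporters do not measure glucose uptake, which was not assayed in these data.

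**Figure D2:**
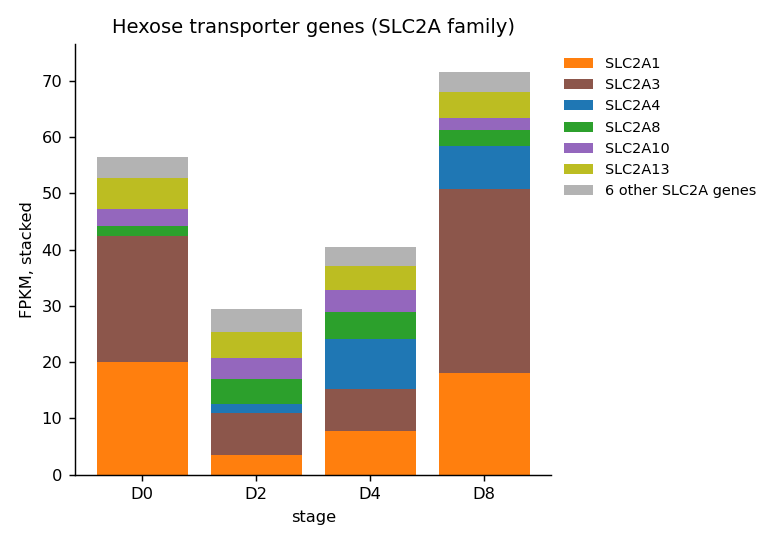
FPKM of the 12 genes of the SLC2A family in the files, stacked by stage (horizontal axis), 1 pooled library per bar. The stack is lowest at D2 (29.4) and highest at D8 (71.5), and SLC2A4 takes its largest share, 21.8%, at D4.

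For each comparison, genes were counted that were reliably expressed and differed at least 2-fold on log2(FPKM + 0.01). Beside them stands the share of all 9191 reliably expressed protein-coding genes that did. As the genes described here were chosen with earlier results of these data known, the counts are a description. Between D2 and D0, 5 of the 8 genes passed, against 16.8% of all genes. INSR, FOXO1, PDE3B and SLC2A4 were upregulated (6.67% of all genes) and SLC2A1 was downregulated (10.1%). The median log2 ratio of the 8 genes was 0.44, against -0.03 for all genes. Between D4 and D2, 4 of 8 passed, against 5.08%, and all 4 (IRS1, PDE3B, SLC2A1 and SLC2A4) were upregulated, as were 4.24% of all genes, while 0.838% were downregulated. Their median log2 ratio was 0.91, against 0.09.

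Between D8 and D4, 5 of 8 passed, against 14.5% of all genes. INSR, IRS1, FOXO1 and PDE3B were downregulated (10.1% of all genes) and SLC2A1 was upregulated (4.43%), with a median log2 ratio of -0.62 against -0.21 for all genes. The median of all genes was thus itself below 0. Relative to it, the log2 ratios were -1.81 for INSR, -1.21 for IRS2, -0.92 for FOXO1, -0.81 for IRS1 and -0.80 for PDE3B, so that under median-ratio scaling only INSR of the 8 genes fell at least 2-fold, and the call of SLC2A1 held. With that scaling the upregulated share of all calls in this comparison was 52.0%, instead of 30.5%. The counting intervals of IRS1 and PDE3B include 2-fold.

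Between D4 and D0, 6 of 8 passed, against 19.2% of all genes. INSR, IRS1, FOXO1, PDE3B and SLC2A4 were upregulated (10.4%) and SLC2A1 was downregulated (8.81%), with a median log2 ratio of 1.38 against 0.06. Between D8 and D0 only PDE3B and SLC2A4 passed, 2 of 8 against 7.28% of all genes. Both were upregulated (3.6%, against 3.68% downregulated), and the median of the 8 genes was 0.24 against -0.18. PDE3B and SLC2A4 were under FPKM 1 at D0 and passed the filter through the stages at which they were high. This favours upregulated calls against D0, also in the counts for D2 vs D0 and D4 vs D0. The comparisons share libraries and are not independent of each other.

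**Figure D3:**
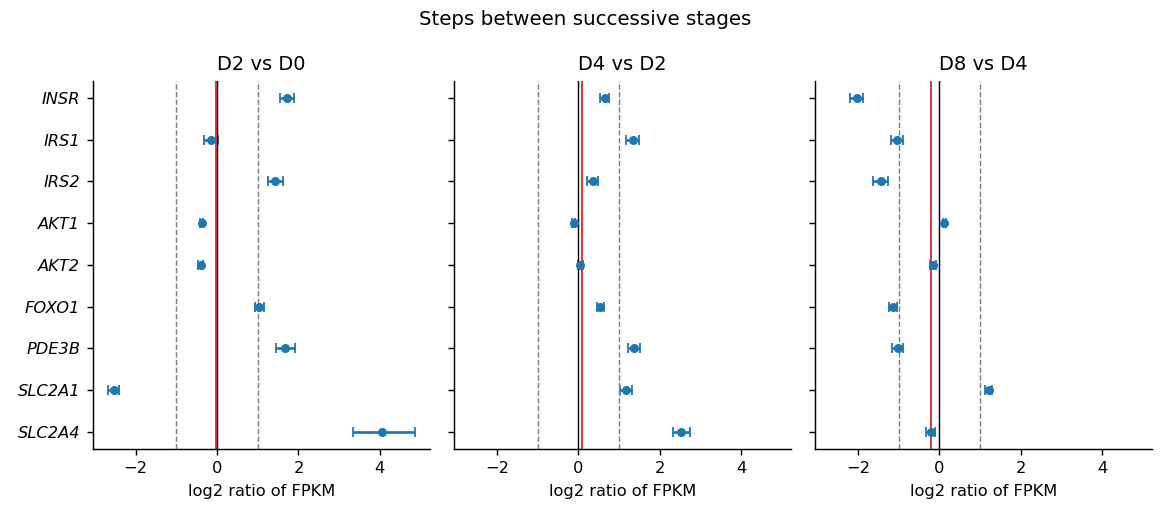
Log2 ratio of FPKM (horizontal axes) between successive stages for the 9 genes, with bars for 95% counting intervals. Dashed lines mark 2-fold and the red line the median of all 9191 reliably expressed genes. From D2 to D4 no gene fell by 2-fold, and from D4 to D8 the ratios of INSR, IRS1, IRS2, FOXO1 and PDE3B lie beyond the lower dashed line, IRS1 and PDE3B with intervals across it.

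The share of the change at D4 that was left at D8 varied among the genes. On the log2 scale, 96.7% of the D0 to D4 change was left at D8 for SLC2A4 and 66.4% for PDE3B, but 28.1% for FOXO1, 19.8% for IRS2 and between 11.4% and 14.0% for INSR, IRS1 and SLC2A1. AKT1 and AKT2, whose changes at D4 were under 2-fold, had 75.6% and 146%. Of the 9 reliably expressed adipocyte markers, 8 kept between 69.2% (LIPE) and 125% (FABP4) of their change, and CEBPA kept 37.4%. The share depends on the size of the change at D4 as well as on the later step. From D4 to D8, PDE3B (0.493 times), IRS1 (0.489 times) and FOXO1 (0.455 times) fell by similar folds, and LIPE fell to 0.323 times. ADIPOQ, the adipokine gene, was 47.0 times D0 at D4 (41.8 to 53.1) and 41.7 times at D8 (37.0 to 47.1), and PLIN1, which coats lipid droplets, was 94.2 times (83.6 to 107) and 39.6 times (35.1 to 44.9).

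**Figure D4:**
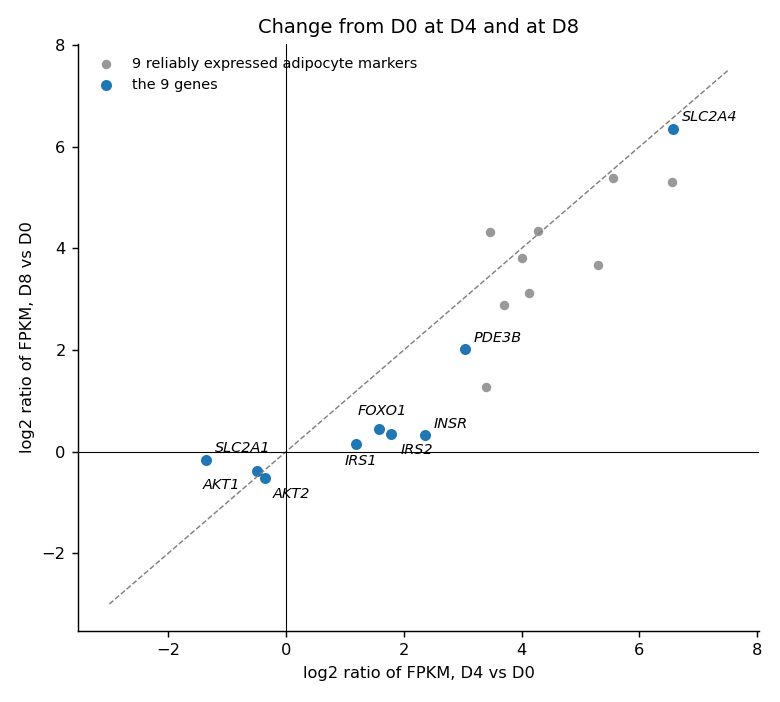
Log2 ratio of FPKM to D0 at D4 (horizontal axis) and at D8 (vertical axis) for the 9 genes and for 9 adipocyte markers, 1 pooled library per stage. Points on the dashed line had the same level at D4 and D8. SLC2A4 lies close to it, and INSR, IRS1, IRS2 and FOXO1 lie near the horizontal line of the D0 level.

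By level, the genes spanned more than 2 orders of magnitude at D0, from SLC2A4 at 0.0924 to AKT1 at 56.5, and the counting intervals of neighbours in that order did not overlap. At D2 the order was AKT1, AKT2, FOXO1, INSR, SLC2A1, IRS2, PDE3B, SLC2A4 and IRS1, in which INSR and SLC2A1, and each neighbouring pair from IRS2 to IRS1, had overlapping intervals. At D4 it was AKT1, SLC2A4, SLC2A1, FOXO1, AKT2, INSR, PDE3B, IRS1 and IRS2, with overlap between SLC2A1 and FOXO1 only. At D8, IRS1 and INSR overlapped, and IRS2 was the lowest.

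The other genes of the pathway were counted in 7 lists with 128 names, of which 122 were in the files and 94 were reliably expressed. The lists were likewise chosen with earlier results of these data known. Some of the 94 were under FPKM 1 at a stage and passed the filter through the stages at which they were high. Among these were CISH, SLC2A11, KLF15 and PDK4 at D0 and PDE7B at D8. At least 2-fold differences were found for 31 of the 94 between D2 and D0 (22 up, 9 down), 4 between D4 and D2 (3 up, 1 down), 23 between D8 and D4 (6 up, 17 down), 30 between D4 and D0 (19 up, 11 down) and 12 between D8 and D0 (8 up, 4 down). Their shares were 33.0%, 4.26%, 24.5%, 31.9% and 12.8%, to be read beside 16.8%, 5.08%, 14.5%, 19.2% and 7.28% for all genes. Median log2 ratios of the 94 genes were -0.07, 0.05, -0.20, 0.04 and -0.21 in the same order.

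For the single lists, genes past 2-fold in at least 1 of the 5 comparisons were counted, to be read beside 29.9% of all reliably expressed genes. Among 12 adaptors and substrates close to the receptor, these were 2, FLOT2 and FLOT1, the flotillins of membrane microdomains. All 12 had a lower FPKM at D2 than at D0, with a median log2 ratio of -0.53 against -0.03 for all genes. FLOT2 had an FPKM of 4.34 at D0, 1.84 by D2, 3.15 by D4 and 3.37 by D8. FLOT1 had 13.7, 8.84, 6.72 and 12.2. Of 18 genes of the PI3-kinase, AKT and mTOR core, 5 passed in at least 1 comparison, a share near that of all genes. PIK3R1, the regulatory subunit that docks on IRS proteins, had 2.91 at D0, 7.90 by D2, 14.8 by D4 and 8.61 by D8, and was 5.08 times D0 at D4 (4.90 to 5.26). MTOR, the kinase downstream of AKT, had 2.99 at D0 and fell from 5.70 at D4 to 2.22 at D8. GYS1, the glycogen synthase, had 6.33 at D0 and fell from 12.3 at D4 to 5.09 at D8. EIF4EBP1, a repressor of translation that mTOR inactivates, had 352 at D0, 206 by D2, 163 by D4 and 354 by D8. At D8 it was thus back at its D0 level.

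Of 15 negative regulators, 7 passed in at least 1 comparison, against 29.9% of all genes. PTPN1, the phosphatase that removes phosphate from INSR, had an FPKM of 5.38 at D0, 11.2 by D2, 20.1 by D4 and 4.74 by D8, with its maximum at D4 as for INSR itself. SOCS3, an inhibitor of cytokine and insulin signalling, was highest earlier, with 7.09 at D0, 21.1 by D2, 11.7 by D4 and 1.81 by D8. CISH, of the same family, had 0.225, 3.49, 8.14 and 3.09, and TRIB2, a pseudokinase that can bind AKT, had 1.10, 3.13, 4.94 and 3.09. All 4 were thus above D0 at D2 and D4, and at D8 PTPN1 and SOCS3 were below their D0 values.

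GLUT4 vesicles need further proteins to reach the surface, and 6 of 17 reliably expressed genes of this traffic passed in at least 1 comparison, in both directions and near the 29.9% of all genes. TBC1D4, the AKT substrate that holds the vesicles back until it is phosphorylated, had an FPKM of 1.89 at D0, 6.50 by D2, 11.9 by D4 and 4.22 by D8, and was 6.32 times D0 at D4 (5.94 to 6.73). LRP1, a cargo of these vesicles, had 12.8 at D0 and fell from 23.9 at D4 to 8.59 at D8. MYO1C, a motor of the same route, had 23.6 at D0, 7.17 by D2, 8.23 by D4 and 15.4 by D8, and the GTPase RALA had 35.5, 13.2, 12.5 and 27.0. The latter genes were thus lowest when SLC2A4 was rising.

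Of 9 reliably expressed genes of the remaining hexose transporters and of glucose trapping, 6 passed in at least 1 comparison, against 29.9% of all genes. HK2, the hexokinase that traps glucose as glucose-6-phosphate, was lowest at D2 as SLC2A1 was, with an FPKM of 13.9 at D0, 3.09 by D2, 6.11 by D4 and 9.71 by D8. TXNIP, which lowers glucose uptake by removing transporters from the surface, had 155, 569, 436 and 548, and its relative ARRDC4 had 7.56, 25.3, 19.5 and 13.5. Between D0 and D2, SLC2A3 and HK2 of this list were downregulated, and TXNIP, ARRDC4 and the transporters SLC2A8 (2.47 times, 2.12 to 2.88) and SLC2A11 (2.86 times, 2.50 to 3.29) were upregulated.

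FOXO factors and genes known to be activated by them passed in 10 of 16 cases in at least 1 comparison, against 29.9% of all genes. Between D2 and D0, 8 were up and 1 was down (6.67% and 10.1% of all genes), and between D8 and D4, 1 was up and 7 were down (4.43% and 10.1%). KLF15 and PDK4, both among the 8, were under FPKM 1 at D0 and passed the filter through the stages at which they were high. PCK1, the key enzyme of glyceroneogenesis, had an FPKM of 1.40 at D0, 5.19 by D2, 9.39 by D4 and 1.06 by D8. PNPLA2, the triglyceride lipase, had 2.70, 8.95, 17.9 and 7.14. KLF15, a transcription factor also induced by glucocorticoids, had 0.657, 5.20, 5.39 and 1.20, and PDK4, which blocks glucose oxidation, had 0.153, 1.62, 1.97 and 1.91. PCK1 and PNPLA2 therefore had their maximum at D4, as FOXO1 did, whereas PDK4 kept its level at D8. KLF15 did not differ clearly between D2 and D4, at 7.91 times D0 (6.55 to 9.63) and 8.20 times D0 (6.81 to 9.94). The gene counted as down at D2 and as up at D8 was FBXO32, whose course was unlike that of FOXO1. It had 9.53 at D0, 2.74 by D2, 2.73 by D4 and 5.75 by D8.

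Of the phosphodiesterases other than PDE3B, 6 of 7 reliably expressed genes passed in at least 1 comparison, against 29.9% of all genes. PDE4B and PDE7B, specific for cyclic AMP, were highest at D2, with 7.03 for PDE4B and 7.27 for PDE7B against 1.72 and 1.54 at D0, and had 1.67 and 0.649 at D8, which was 0.971 times D0 (0.898 to 1.05) for PDE4B and 0.420 times D0 (0.377 to 0.468) for PDE7B. The calcium-dependent PDE1C had 7.63 at D0 and 2.02 at D2, and PDE1A had 2.77 at D0, 1.44 at D4 and 4.64 at D8. D2 followed the treatment with the phosphodiesterase inhibitor, with which stage and library cannot be told apart.

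**Figure D5:**
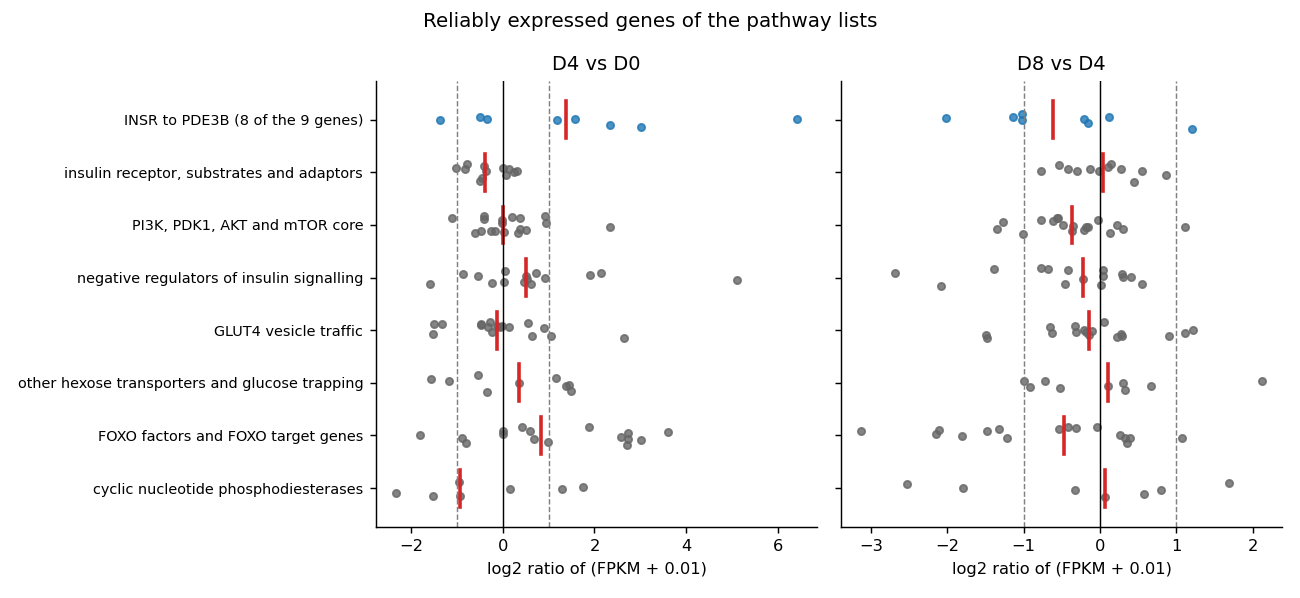
Log2 ratio of (FPKM + 0.01) for D4 vs D0 (left) and D8 vs D4 (right), 1 point per reliably expressed gene, with red bars for list medians and dashed lines at 2-fold. The top row holds 8 of the 9 genes described here, with medians of 1.38 and -0.62, and the list of FOXO factors and targets has medians of 0.83 and -0.48.

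Genes with the most similar course were searched among the 9191 reliably expressed genes by the root mean square difference of centred log2(FPKM + 0.01) over the 4 libraries. With 4 points and so many candidates, close matches are likely for common courses, and the values are a description. SLC2A4 had no close match among these genes, and its nearest were ADIPOQ at 0.39, PLIN1 at 0.42 and RDH16, a retinol dehydrogenase, at 0.51. The difference grows with the size of the changes, and the D0 value of SLC2A4 rests on 17 reads. For PDE3B they were THRB, a thyroid hormone receptor, at 0.10, ACAA1, a thiolase of peroxisomal beta-oxidation, at 0.10 and ACACA, the acetyl-CoA carboxylase of fatty acid synthesis, at 0.11. SLC2A1 was closest to CKS2, a partner of cyclin-dependent kinases, at 0.09, RHOB at 0.17 and SYNPO2 at 0.18. INSR was closest to AOX1, PPIF and ARL6IP1 (0.10 to 0.13), IRS1 to SCARB1, TGFB2 and STK39 (0.08 to 0.11), IRS2 to FTL, RNF125 and FAM117B (0.03 to 0.05) and FOXO1 to NT5DC2, PEX6 and PSME1 (0.04 to 0.06). AKT1 matched YES1, KPNA1 and NUP35 and AKT2 matched NDUFAF5, PDCD6IP and FAM91A1, each within 0.02.

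Other RNA classes at these loci added little. Of 8623 circRNAs, 1 lay within any of the 9 genes on its strand. It was ssc_circ_0001280 in INSR, at 71919789 to 71922125 of chromosome 2, with 0, 3, 5 and 0 back-splice junction reads in the order D0, D2, D4 and D8. It was seen at the stages at which INSR mRNA was high, but 5 reads or fewer cannot show a difference, and the smallest circRNA value above 0 in the files was 2 junction reads. Within 50 kb of the 9 genes there were 10 lncRNAs, and 2 reached FPKM 1 in at least 1 library. LOC110258334, 11749 bases from AKT1 on the same strand, had 2.02, 1.42, 1.75 and 2.17, and MSTRG.105921, 47948 bases from SLC2A4 on the opposite strand, had 0.495, 0.950, 1.81 and 0.276.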

How the data were processed

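The authors pooled RNA of 3 piglets per stage, removed ribosomal RNA, made strand-specific libraries, aligned trimmed reads to Sscrofa11.1 with HISAT2 2.0.5 and deposited FPKM for mRNAs and lncRNAs. For circRNAs (BWA-MEM and CIRI, at least 2 junction reads) the authors deposited, in the same column, the junction signal SRPBM, junction reads scaled to the mapped reads. The tool that counted fragments is not given in the sources used here.

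Library totals were computed from the smallest FPKM values of the unspliced tRNA and miRNA rows, each worth 1 read, and 93.8% of their 1521 values above 0 were whole within 0.01 reads. For each gene of the lists, the smallest length that turns its FPKM values into whole reads was found (177 of 178 genes); a multiple of it would narrow the intervals. Ratios have exact conditional 95% intervals, which cover counting error only, since each stage has 1 library. PCR copies were not marked, and any such copies would make the intervals too narrow. Calls used log2(FPKM + 0.01), FPKM 1 reached in 3 or more libraries, and 2-fold. Scripts (Python 3.11.15, pandas 2.3.3, scipy 1.17.1) were tested on simulated data.

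The 9 genes and the lists were chosen with earlier results of these data known. Named were the 9 genes, the 3 genes of most similar course for each, up to 4 genes per list with the largest log2 ratio among those past 2-fold, circRNAs above 0 in at least 2 libraries and lncRNAs at FPKM 1 or more. PDE3A, FOXO3, FBXO32, ADIPOQ, MYH11, ACTA2, TAGLN, CNN1, CSPG4, NOTCH3, RGS5, LIPE, CEBPA, SLC2A5, SLC2A8 and SLC2A11 were added after their values were seen. Alternatives were pseudocounts of 0.1 and 1, no filter, 2 scalings and a fold of 1.5. Gene positions were matched to RefSeq by symbol, start and end. Sequences were not used here.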

Additional observations from a re-analysis of the deposited data

How the results depend on the processing

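No paired analysis was possible because each stage has 1 library, and for the same reason no library could be left out. Of 225 log2 ratios of the 9 genes under 5 alternatives, 221 kept their sign. The exceptions, all under 2-fold, were AKT2 for D4 vs D2 and D8 vs D4 and SLC2A1 for D8 vs D0. Only the 2 scalings could change a sign, as neither the filter nor a pseudocount can reverse a ratio. Of the 225 ratios, 16 crossed 2-fold, each to under it, and a larger pseudocount can only shrink a ratio. A pseudocount of 0.1 left 3 of the 8 genes past 2-fold for D8 vs D4 instead of 5 (IRS1 and PDE3B were at -0.99). A pseudocount of 1, which shrinks the ratios of genes near FPKM 1, left 3 for D2 vs D0, 1 (SLC2A4) for D4 vs D2, 2 for D8 vs D4 and 5 (without IRS1) for D4 vs D0, with medians of 0.71 for D4 vs D2, -0.45 for D8 vs D4 and 1.03 for D4 vs D0, and 2 genes of the wider lists for D4 vs D2. Median-ratio scaling left 2 (INSR and SLC2A1) for D8 vs D4, with a median of -0.41, and in D8 vs D0 it moved the upregulated share of all calls from 49.5% to 66.1%. With it the wider lists had 9 up and 16 down for D8 vs D4, and 2 up and 2 down for D4 vs D2. Without the filter, which brings in IRS2, medians were 1.04 for D2 vs D0, 0.65 for D4 vs D2, -1.02 for D8 vs D4 and 1.58 for D4 vs D0, and the wider lists had 12 genes for D4 vs D2 and 20 for D8 vs D0. At a fold of 1.5 the wider lists had 49 (D2 vs D0), 20 (D4 vs D2), 37 (D8 vs D4), 47 (D4 vs D0) and 32 (D8 vs D0). Depth limits the ratios of SLC2A4 to D0, where 17 reads were counted.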

Other observations

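SLC2A5, the fructose transporter, had a course like that of SLC2A1 at a lower level, with an FPKM of 1.70 at D0, 0.0636 by D2, 0.214 by D4 and 1.99 by D8. It was not reliably expressed and was picked after its values were seen.

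MSTRG.67324, a newly assembled lncRNA listed as antisense, lies inside SLC2A1 at 168545444 to 168546055 of chromosome 6, but on the strand listed for SLC2A1. Its FPKM was 0.567 at D0, 0.169 by D2, 0.950 by D4 and 0.343 by D8. Whether its reads belong to SLC2A1 was not tested.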
